A study of Mus musculus with 16 samples.

Results

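The genes described here encode the proteins of the cytosolic ribosome, the particle that makes nearly all cellular protein. They were taken by symbol, as Rpl or Rps followed by digits and at most 1 lowercase letter, together with Rplp0, Rplp1, Rplp2 and Rpsa, and without pseudogene symbols. This gave 81 genes of the 23284 symbols counted, 49 of the large subunit and 32 of the small subunit. Their RNA was measured by sequencing in 9 lung tumors labelled RPMax-/-, called Max null here, and in 7 labelled RPMaxWT, called Max wild-type. All 16 tumors carry the RP background, on a mixed 129/SvJ and C57BL/6 strain, and gene deletion followed delivery of adenovirus with CMV-driven Cre recombinase into the trachea. The labels leave RP unexplained; in this field the letters usually stand for conditional loss of Rb1 and Trp53, which gives tumors like human small cell lung cancer. Such a virus can recombine any lung cell type that it enters, and no age is given. Whether each tumor is from a different mouse is not stated, and the p-values below reflect the variation among these 16 samples only.

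A ribosome holds about 1 copy of each of its proteins, and cells usually keep the messages for these proteins in step with one another. Most of these messages start with a run of pyrimidine bases, the terminal oligopyrimidine tract, through which nutrient signals set their translation. MAX is the partner that MYC proteins need in order to bind the DNA sequence CACGTG, and genes for ribosomal proteins and ribosome assembly are among the best known genes that MYC is associated with. The comparison asks how these messages differ in tumors in which Max was deleted.

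RefSeq promoter windows (GRCm38.p6) matched 60 of the 81 genes, some with more than 1 window, and 12 of the 15 genes that passed the test below. Promoters are printed for 5 of the genes called lower (Rps27l, Rpl24, Rps25, Rps27 and Rps6). They are also printed for the gene of each subunit with the difference nearest 0 (Rplp2 and Rps9), and for Rpl19, which holds CACGTG. Rps24 and Rpl27, also among the called genes of smallest p, are not printed, and held none of the marked motifs in the same stretch. Each stretch runs from 100 bases before the annotated start to 20 bases after it, 5′ to 3′ on the gene's strand. Capitals mark CACGTG, which reads the same on both strands, CGGAAG or its reverse complement CTTCCG, and CTTTC on the gene's strand within 20 bases of the start.
Rps27l (+ strand, chr9:66945986-66946105): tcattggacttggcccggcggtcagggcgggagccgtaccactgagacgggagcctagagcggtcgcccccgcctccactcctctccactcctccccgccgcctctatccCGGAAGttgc
Rpl24 (+ strand, chr16:55966175-55966294): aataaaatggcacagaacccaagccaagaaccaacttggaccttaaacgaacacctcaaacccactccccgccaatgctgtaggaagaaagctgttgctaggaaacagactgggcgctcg
Rps25 (+ strand, chr9:44407614-44407733): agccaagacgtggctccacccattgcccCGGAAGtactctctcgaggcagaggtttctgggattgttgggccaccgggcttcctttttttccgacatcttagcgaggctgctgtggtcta
Rps27 (- strand, chr3:90213629-90213748): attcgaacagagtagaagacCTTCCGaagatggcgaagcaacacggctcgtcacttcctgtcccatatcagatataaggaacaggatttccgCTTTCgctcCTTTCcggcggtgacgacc
Rps6 (- strand, chr4:86857348-86857467): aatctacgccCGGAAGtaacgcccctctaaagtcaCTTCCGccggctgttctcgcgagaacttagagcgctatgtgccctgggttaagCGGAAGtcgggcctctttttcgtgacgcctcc
Rplp2 (+ strand, chr7:141447551-141447670): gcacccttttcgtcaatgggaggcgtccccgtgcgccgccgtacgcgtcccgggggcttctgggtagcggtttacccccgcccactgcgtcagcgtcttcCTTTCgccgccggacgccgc
Rps9 (+ strand, chr7:3703941-3704060): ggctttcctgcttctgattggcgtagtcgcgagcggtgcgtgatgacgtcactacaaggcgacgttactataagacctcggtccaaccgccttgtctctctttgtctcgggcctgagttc
Rpl19 (+ strand, chr11:98026610-98026729): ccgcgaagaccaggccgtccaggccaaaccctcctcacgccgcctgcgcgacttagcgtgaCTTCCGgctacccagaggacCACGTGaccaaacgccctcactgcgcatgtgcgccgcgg
CACGTG was found in 8 of 72 member windows of 300 bases (11.1%), against 7.15% of all 32851 RefSeq windows. The member genes with it were Rpl13a, Rpl14, Rpl19, Rpl23, Rpl34 and Rps19. CGGAAG or CTTCCG, which spell 1 motif on either strand, was found in 61.1% of member windows and 16.9% of all windows. CTTTC within 20 bases of the start was found in 26.4% of member windows and 5.49% of all windows. No pair of these motifs can share more than 2 bases, and each was counted apart. In the stretches printed above, CTTTC begins at the annotated start of Rplp2. These matches describe letters in a window and not binding.

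Reads in genes numbered 8.66 to 15.11 M (megareads) in null tumors, against 9.15 to 13.22 M in wild-type tumors, so counting error is small except for genes near 0. Levels are in CPM, which are counts per M reads after TMM scaling of the library sizes. The share of reads that aligned to more than 1 place was 9.17% to 11.8% in null tumors and 12.3% to 22.2% in wild-type tumors, with no overlap. Such reads belong to no gene in these counts, and many ribosomal protein genes have near-identical processed copies elsewhere in the genome, so the level of any member is uncertain. The share and the genotype cannot be told apart over all 16 tumors. Wild-type tumors 2, 4 and 7 had the highest shares (16.01%, 20.78% and 22.2%), and the main results are given with and without them. The other 4 wild-type tumors had shares of 12.3% to 14.6%, still above every null tumor, so leaving out the 3 does not separate share from genotype. Tumors 7 and 4 also had the highest summed CPM of the members, so leaving them out also removes the highest values. Max itself was listed at 74.5 ± 6.0 CPM in null and 65.8 ± 8.0 CPM in wild-type tumors (n = 9 and n = 7, SD; log2 difference 0.18, edgeR adjusted p = 0.281). The counts do not show which exons were deleted, so this level checks no label. The neuroendocrine markers Insm1 and Chga were detected in all 16 tumors, at 152 to 674.6 CPM for Insm1 and 234.9 to 1423 CPM for Chga. Of the 14 such markers listed, Neurod1 was near 0 in most tumors (0 to 22.3 CPM, median 0.125 CPM). The others ran no lower than 6.46 CPM (Dll3) in any tumor.

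All ribosomal protein genes together summed to 42443 ± 5299 CPM in null tumors and 73681 ± 66080 CPM in wild-type tumors (n = 9 and n = 7, SD). The null tumors ran from 34816 through a median of 41642 to 53833 CPM, and the wild-type tumors from 34125 through a median of 50776 to 219034 CPM. Wild-type tumor 7 was at the top with 219034 CPM, followed by wild-type tumor 4 with 81351 CPM and wild-type tumor 1 with 54746 CPM. The null tumors lay within a 1.55-fold range, and the wild-type tumors spanned 6.42-fold and enclosed them. As a share of the reads in genes, the members took 3.64% to 5.55% in null tumors and 3.62% to 16.4% in wild-type tumors. The log2 ratio of the group means, null over wild-type, was -0.80. Without wild-type tumors 2, 4 and 7 the remaining 4 wild-type tumors averaged 41151 ± 9238 CPM (SD), and the log2 ratio was 0.05. Without wild-type tumor 7 alone it was -0.22. In bulk tumors, fewer cells of a type and less RNA per cell cannot be told apart.

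**Figure D1:**
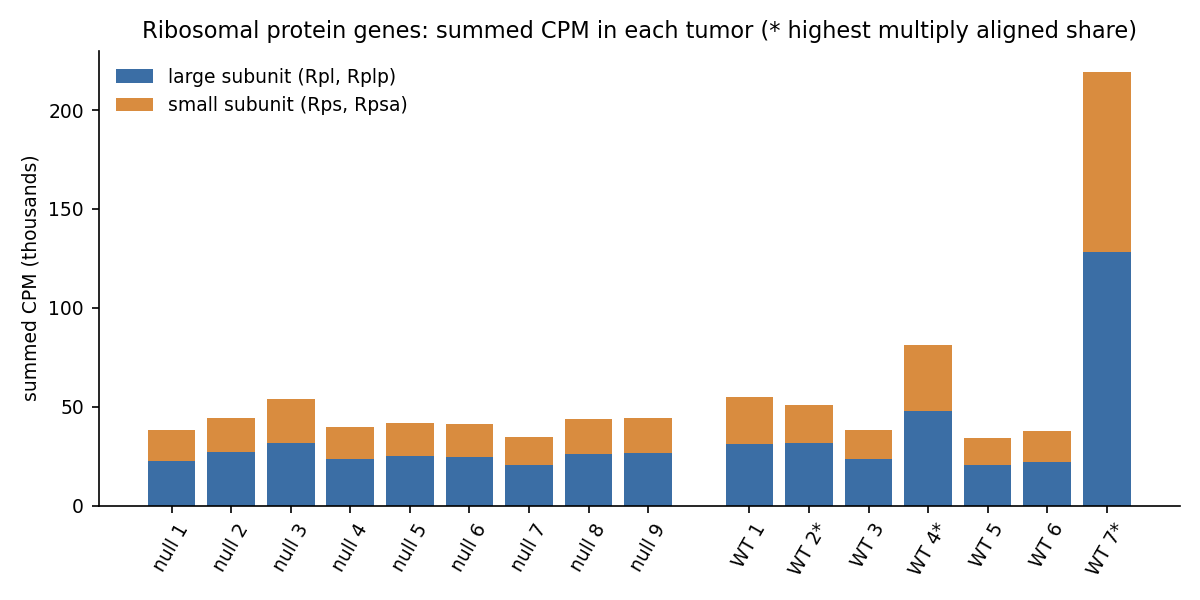
Summed CPM of the 81 ribosomal protein genes divided by 1000 (y axis, from 0) in each of the 9 null (left) and 7 wild-type (right) tumors, split into large and small subunit genes; asterisks mark the 3 wild-type tumors with the highest multiply aligned share. Wild-type tumor 7 stands at 219034 CPM and wild-type tumor 4 at 81351 CPM, while the null tumors lie between 34816 and 53833 CPM.

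The difference between the groups was tested for 77 of the 81 genes, those with enough reads. In the edgeR quasi-likelihood fit over 14825 genes, 15 were lower in null tumors and 0 were higher, at an adjusted p under 0.05. Over all genes tested, 8.64% were called lower and 7.40% higher. The fitted difference, null minus wild-type on the log2 scale, was below 0 for 77 of 77 members, with a median of -0.83, against a median of -0.03 over all genes. This direction depended on the fit. With the multiply aligned share as covariate 2 members lay below 0 and 75 above it, the median was 0.59 and 0 members were called, against 0.0135% of all genes called lower and 0.0540% called higher. The groups do not overlap in that share, so this fit cannot separate the group difference from the share. With an offset for transcript length 54 members lay below 0 and 23 above it, with limma-voom 68 below and 9 above, and with library totals alone 75 and 2 (Rplp2 and Rps9). The median was -0.74 for the large subunit, with 9 of 45 genes called, and -0.88 for the small subunit, with 6 of 32 called. At an unadjusted p under 0.05 there were 51 of the 77, all lower in null tumors, where 17.9% of all genes were lower and 14.9% higher. With all 7 wild-type tumors, no member had groups that did not overlap. Of all genes, 0.648% were lower and 0.917% higher in every null tumor than in every wild-type tumor. DESeq2 on the same counts called 32 members lower and 0 higher, against 12.1% of all genes lower and 10.4% higher. Limma-voom with sample quality weights, which gives less weight to tumors that vary more, called 3 lower and 0 higher, against 7.73% of all genes lower and 8.73% higher.

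Without wild-type tumors 2, 4 and 7 the median difference was near 0. Then 0 of 78 members were called by edgeR, against 0.871% of all genes called lower and 0.805% called higher. The median was 0.05, with 45 members above 0 and 33 below 0. At an unadjusted p under 0.05 there were 12 members, 7 higher (9.49% of all genes were) and 5 lower (10.1% of all genes were) in null tumors, and the smallest adjusted p was 0.145 (Rps6). No member had groups that did not overlap in this comparison either, where 1.17% of all genes were lower and 1.30% higher without overlap. Without wild-type tumor 7 alone, 3 members (Rps27l, Rpl24 and Rps25) were called lower and 0 higher, against 5.56% and 4.85% of all genes, and the median was -0.23. Without wild-type tumor 4 alone, these 3 with Rps27 and Rps6, 5 in all, were called lower, where 5.31% of all genes were called lower and 4.55% higher. Leaving out 1 of null tumors 1, 2, 4, 6, 7, 8 and 9 gave 7 or 8 called lower, where 5.60% to 7.69% of all genes were, and leaving out 1 of wild-type tumors 1, 3, 5 and 6 gave 23 to 27, where 8.58% to 10.5% of all genes were.

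**Figure D2:**
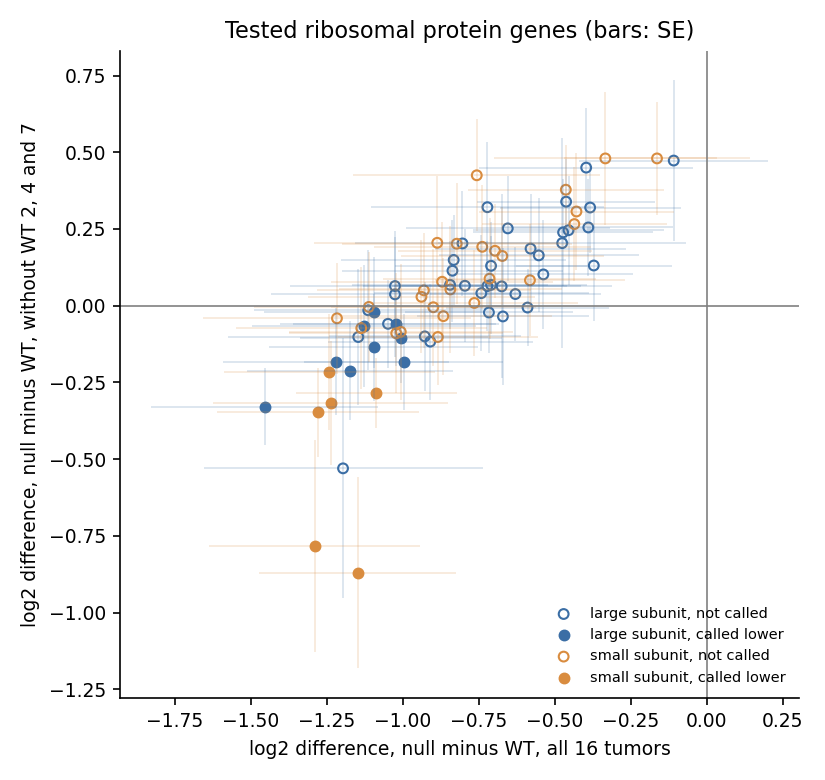
Log2 difference of each tested ribosomal protein gene, null minus wild-type, with all 16 tumors (x axis) and without wild-type tumors 2, 4 and 7 (y axis); bars are standard errors, colors the subunits, and filled points the 15 genes called lower with all tumors. All points lie left of 0 on the x axis, while on the y axis they spread around 0 and the called genes lie below it.

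The genes with the smallest p came from both subunits, and their values are given as lowest, median and highest tumor. Rps27l, a close copy of Rps27 known in human cells as a target of p53, had 84.9, 108 and 115.6 CPM in null tumors, against 111.3, 139.3 and 440.3 CPM in wild-type tumors. Wild-type tumor 6 lay inside the null range, and the other 6 lay above it, with tumors 7 and 4 highest. The log2 difference was -1.09 ± 0.27 (SE; edgeR adjusted p = 0.0142), and -0.29 ± 0.11 without wild-type tumors 2, 4 and 7 (adjusted p = 0.191).

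Rpl24, a protein of the large subunit at the face toward the small one, had 313.2, 367.9 and 427.1 CPM in null tumors, against 400.7, 546.2 and 3375.5 CPM in wild-type tumors. Wild-type tumors 3 and 5 lay inside the null range and the other 5 above it. Its log2 difference of -1.46 ± 0.37 (adjusted p = 0.0179) had the largest size of all members, and was -0.33 ± 0.13 without the 3 wild-type tumors (adjusted p = 0.17). Rps25, which some viral internal ribosome entry sites need, had 306.7, 346.1 and 406.3 CPM in null tumors, against 380.5, 605.5 and 2509.8 CPM in wild-type tumors. Wild-type tumors 3, 5 and 6 lay inside the null range. The difference was -1.28 ± 0.33 (adjusted p = 0.0192), and -0.35 ± 0.15 without the 3 wild-type tumors (adjusted p = 0.208). In the reference annotation 33.6% of the exon bases of Rps25 lie across from Trappc4 on the opposite strand. The strand setting of the counting is not given in the sources used here, so reads of the pair may not be told apart, and the value for Rps25 is uncertain.

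Rps24 and Rps6 are small-subunit genes. RPS24 is among the genes mutated in Diamond-Blackfan anemia, and RPS6 is the protein that S6 kinases phosphorylate. Rps24 had 407.3, 658 and 854.3 CPM in null tumors, against 521, 885.5 and 4124.3 CPM in wild-type tumors. Wild-type tumors 1, 3 and 6 lay inside the null range, and the log2 difference was -1.24 ± 0.35 (adjusted p = 0.0256). Rps6 had 591.8, 839.9 and 1055 CPM in null tumors, against 807.9, 1058.2 and 4238 CPM in wild-type tumors. Wild-type tumors 2, 3 and 5 lay inside the null range, while wild-type tumor 1 had 3341.4 CPM, second to tumor 7. Its difference was -1.15 ± 0.32 (adjusted p = 0.0262), and -0.87 ± 0.31 without the 3 wild-type tumors, a fit that keeps tumor 1.

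The large-subunit genes Rpl27 and Rpl32 followed. Rpl27 had 246.4, 272.3 and 375.7 CPM in null tumors, against 261.2, 427.7 and 1868.9 CPM in wild-type tumors, a difference of -1.18 ± 0.34 (adjusted p = 0.0289). Rpl32 had 316.3, 351.9 and 487.8 CPM in null tumors, against 341.5, 590.8 and 2911.7 CPM in wild-type tumors, a difference of -1.22 ± 0.37 (adjusted p = 0.0352). For both genes wild-type tumors 5 and 6 lay inside the null range, as did tumor 3 for Rpl32. Rps27 was called at a level of few reads, with 0.58, 1.37 and 2.6 CPM in null tumors, against 1.61, 2.7 and 8.09 CPM in wild-type tumors, a difference of -1.29 ± 0.35 (adjusted p = 0.0221). Only wild-type tumor 1 lay inside the null range of Rps27, and the call rested on 5 to 39 reads per null tumor and 21 to 60 per wild-type tumor. In the fit without the 3 wild-type tumors the differences were -0.22 ± 0.19 for Rps24 (adjusted p = 0.567), -0.78 ± 0.35 for Rps27 (0.23), -0.21 ± 0.16 for Rpl27 (0.501) and -0.18 ± 0.17 for Rpl32 (0.607). The other 7 genes called were Rps26, Rpl41, Rpl10a, Rpl36, Rpl37, Rpl31 and Rpl17, with log2 differences between -1.24 (Rps26) and -0.998 (Rpl10a) and adjusted p from 0.0379 to 0.0472. Of the exon bases of Rpl31, 28% lie across from Tbc1d8, so its value is uncertain in the same way as that of Rps25. Without wild-type tumors 2, 4 and 7 the differences of these 7 genes lay between -0.32 (Rps26) and -0.02 (Rpl37), and none was called.

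At the other end, the differences nearest 0 were those of Rplp2 and Rps9. Rplp2, a protein of the ribosomal stalk, averaged 245.7 ± 68.0 CPM in null tumors and 265.1 ± 185.5 CPM in wild-type tumors (n = 9 and n = 7, SD), a log2 difference of -0.11 ± 0.31 (adjusted p = 0.839). Rps9 averaged 627.1 ± 128.4 CPM in null tumors and 702.5 ± 544.5 CPM in wild-type tumors, a difference of -0.16 ± 0.31 (adjusted p = 0.746). Both stood above 0, at 0.47 and 0.48, without the 3 wild-type tumors, and neither was called there (adjusted p = 0.339 and 0.172).

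The members moved together within single tumors. In wild-type tumor 7, 77 of 77 tested members lay above every null tumor, where 26.9% of all genes did. In wild-type tumor 4 it was 71 members, where 22.1% of all genes did. Wild-type tumor 2 had 24 such members (31.2%), where 22.7% of all genes did, and tumor 1 had 23 (29.9%), where 18.8% of all genes did. Wild-type tumors 3, 5 and 6 lay the other way, with 4, 3 and 4 members above every null tumor and 17, 31 and 22 members below every null tumor. Of all genes, 16.7%, 14.4% and 14.2% were below every null tumor in these 3. Relative to the null median, the median member stood at 5.38 times in wild-type tumor 7, with Rpl22 lowest among tested members at 2.63 times. It stood at 2.04 times in wild-type tumor 4, from 1.21 times (Rps3) to 3.75 times (Rpl38). Among null tumors, tumor 3 was above the other 8 for 56 members, where it was for 11.2% of all genes, and tumor 7 was below them for 39, where it was for 9.66% of all genes.

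**Figure D3:**
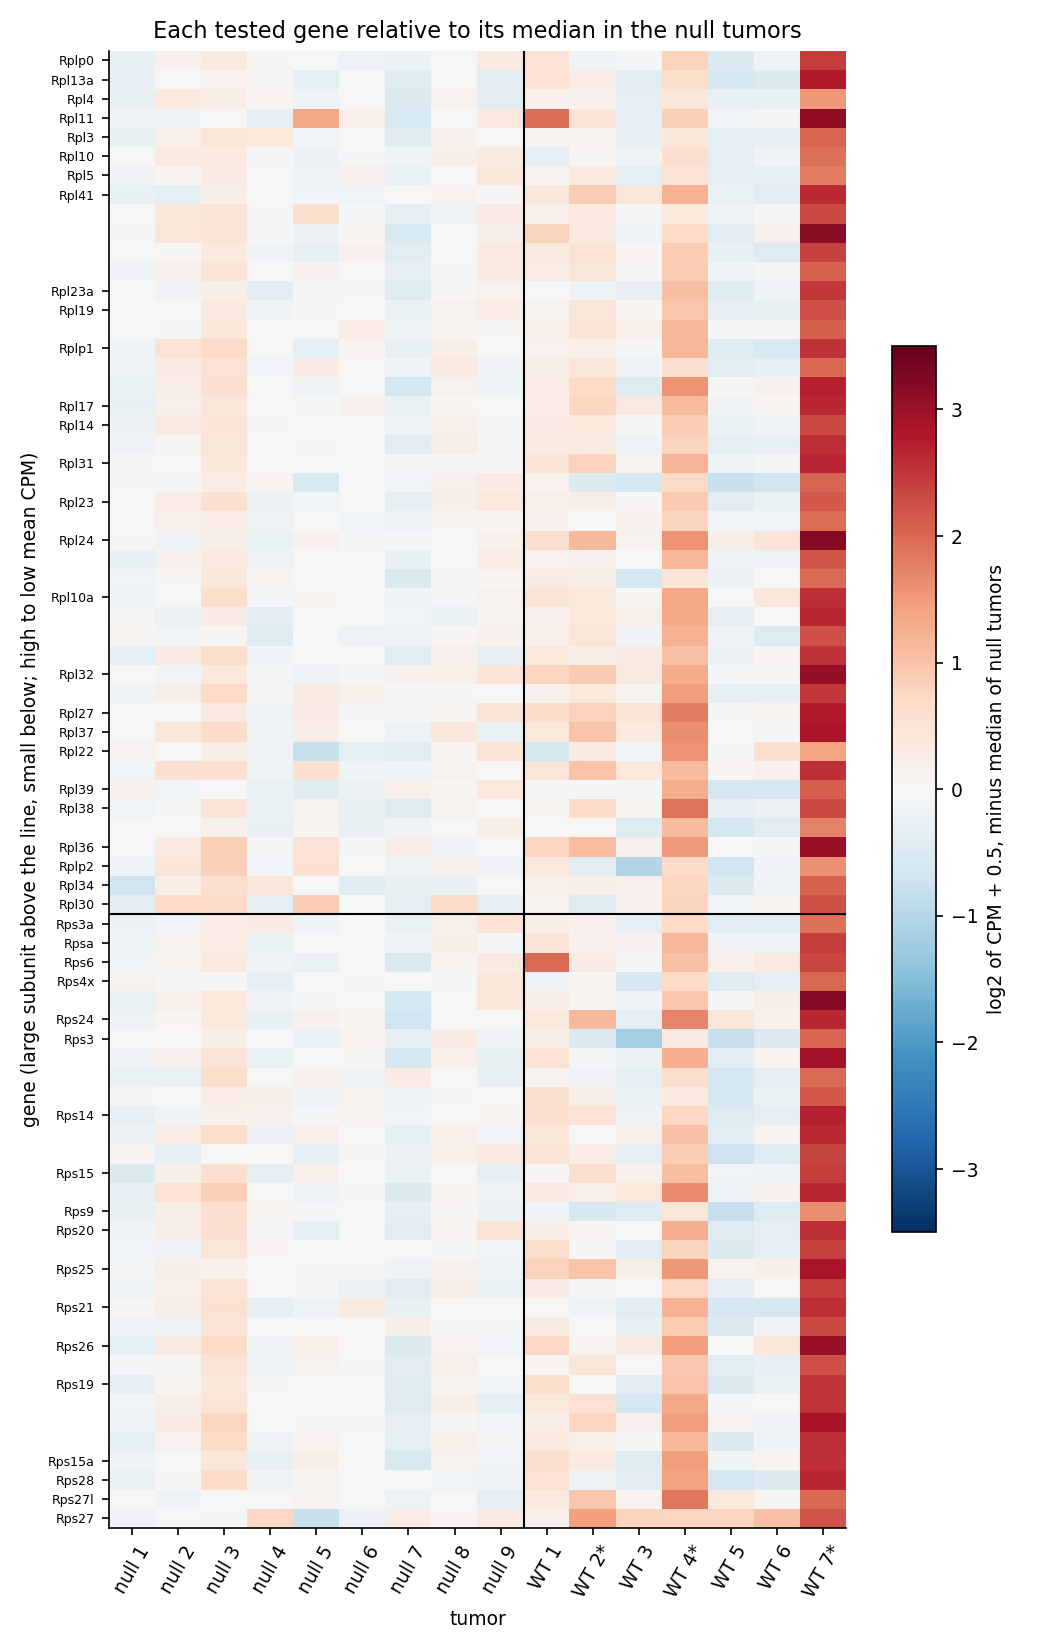
Each of the 77 tested genes (rows, large subunit above the line) in each tumor (columns, 9 null left of the line and 7 wild-type right of it), as log2 of CPM + 0.5 minus the gene's median in the null tumors. Labels are given for the genes described in the text. Wild-type tumor 7 is high for all 77 genes and tumor 4 for most, and Rpl11 and Rps6 stand out in wild-type tumor 1.

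Within a tumor the members kept close to one another. For the 74 members with a mean of at least 20 CPM, 1184 values were compared with the value that the gene's median over tumors and the tumor's overall movement would give. That movement is the median over these same members, so some closeness is built in, and other genes were not compared in this way. Of the 1184 values, 1179 lay within 1 log2 unit, and 95.1% within 0.5. The 5 others were Rpl11 in wild-type tumor 1 (2740 CPM, 1.75 above), Rps6 in the same tumor (3341 CPM, 1.65 above), Rpl11 in null tumor 5 (1800 CPM, 1.37 above), Rps3 in wild-type tumor 3 (400.5 CPM, 1.06 below on the log2 scale) and Rpl22 in wild-type tumor 7 (903.6 CPM, 1.03 below on the log2 scale). RPL11 binds MDM2 together with RPL5 and the 5S RNA, and Rpl22 has a known role in T cell development. When library size was set to the summed count of the members, edgeR called 0 of 77 members, against 0.182% of all genes called lower and 0.796% called higher. In that fit 8 members had an unadjusted p under 0.05, 4 in each direction, and the differences of the members ran from -0.76 (Rps27) to 0.56 (Rplp2). Of all 14825 genes in the fit, 2086 were higher in null tumors and 430 lower at the same unadjusted threshold. Without wild-type tumors 2, 4 and 7 that fit again called 0 members.

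The reads in large-subunit genes over those in small-subunit genes gave a ratio of 1.47 ± 0.04 in null tumors, against 1.47 ± 0.10 in wild-type tumors (n = 9 and n = 7, SD). The ratio ran from 1.43 through a median of 1.45 to 1.53 in null tumors, and from 1.33 through a median of 1.46 to 1.62 in wild-type tumors. Wild-type tumor 1 had the lowest ratio and wild-type tumor 2 the highest, and 5 of the 7 wild-type tumors lay outside the null range: tumors 2 and 3 above it, and tumors 1, 4 and 7 below it. Wild-type tumor 7, with the highest sum, had a ratio of 1.41 and tumor 4 a ratio of 1.42. Without the 3 wild-type tumors the ratio of the others was 1.46 ± 0.10. The difference between the group means was smaller than the spread within either group.

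**Figure D4:**
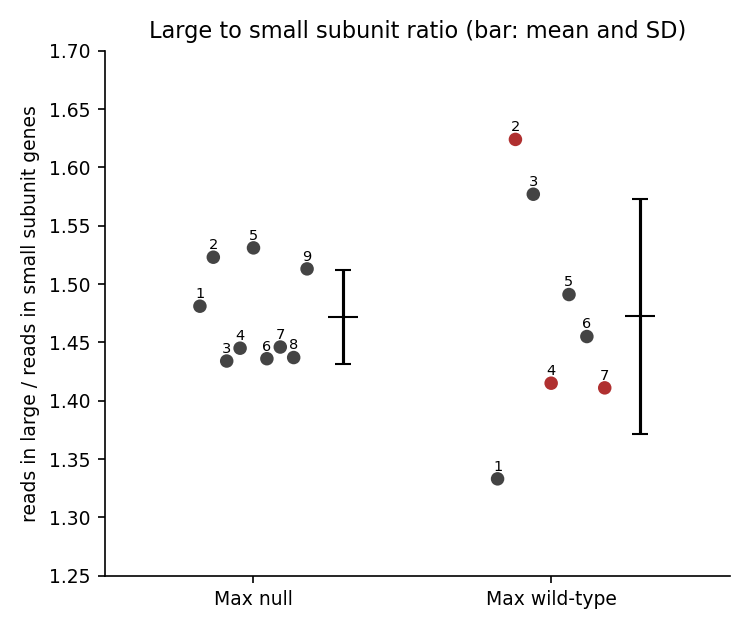
Reads in large-subunit genes divided by reads in small-subunit genes (y axis, not starting at 0) in each null (left) and wild-type (right) tumor; numbers are tumor numbers, red points the 3 wild-type tumors with the highest multiply aligned share, and bars the mean and SD. The means are both 1.47, and the wild-type tumors spread from 1.33 to 1.62.

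Rpl5, Rpl11, Rpl22 and Rps19, members with well known roles outside the ribosome or in disease, did not pass the test. Rpl5, the partner of RPL11, averaged 958.5 ± 141.9 CPM in null tumors and 1256 ± 868 CPM in wild-type tumors (log2 difference -0.39 ± 0.28, adjusted p = 0.341). Its exons lie across from Fam69a for 46.6% of their bases, so its value is uncertain. Rpl11 averaged 804.6 ± 393 CPM in null tumors and 1844 ± 2006 CPM in wild-type tumors (-1.20 ± 0.46, adjusted p = 0.0805). Rpl22 averaged 334.6 ± 81.0 CPM in null tumors and 532.9 ± 311.5 CPM in wild-type tumors (-0.67 ± 0.28, adjusted p = 0.109). Rps19, the gene most often mutated in Diamond-Blackfan anemia, averaged 289.4 ± 48.9 CPM in null tumors and 519.8 ± 519.5 CPM in wild-type tumors. Its difference was -0.84 ± 0.37 (adjusted p = 0.117).

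Levels between genes were compared per kilobase of spliced length, as means over tumors. Over all 16 tumors the small-subunit genes of highest mean were Rps3a (1774 CPM per kb), Rps6 (1476 CPM per kb) and Rps15 (1413 CPM per kb). Rps3a had 1537 CPM per kb in null tumors and 2078 CPM per kb in wild-type tumors, and Rps6 had 963.5 CPM per kb in null tumors and 2136 CPM per kb in wild-type tumors. The place of Rps6 rests on the wild-type tumors, since in null tumors Rps15 (1025 CPM per kb), Rps4x (980 CPM per kb), Rps21 (977.9 CPM per kb) and Rps14 (964.2 CPM per kb) stood above it. Among large-subunit genes the highest means over all tumors were those of Rpl41 (1977 CPM per kb), Rplp1 (1810 CPM per kb) and Rpl23a (1697 CPM per kb). Rpl41, which encodes a very short peptide, had 1320 CPM per kb in null tumors and 2822 CPM per kb in wild-type tumors. The exons of Rpl23a lie across from Tlcd1 for 55.4% of their bases, so its level is uncertain. The lowest means of the small subunit were those of Rps27 (7.03 CPM per kb), Rps15a (64.6 CPM per kb) and Rps20 (170.4 CPM per kb). The annotated lengths used were 5130 bases for Rps15a and 3706 bases for Rps20, against a median of 751 bases over members. Without a correction for length Rps15a averaged 331.4 CPM and Rps20 631.7 CPM, so their place per kb depends on the length used. Multiply aligned reads were not counted, so the low level of Rps27 is uncertain and need not mean little RNA.

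Counted in CPM, with no correction for length, the highest means over all tumors were those of Rps3a, Rpsa and Rps6 in the small subunit and Rplp0, Rpl13a and Rpl4 in the large subunit. Rpsa, also known as the precursor of a laminin receptor, averaged 1229 CPM in null tumors and 2269 CPM in wild-type tumors, a log2 difference of -0.89 ± 0.33 (adjusted p = 0.0723). Rplp0, the base of the stalk, averaged 1179 CPM in null tumors and 1972 CPM in wild-type tumors, a log2 difference of -0.74 ± 0.35 (adjusted p = 0.154). Rpl13a averaged 999.1 CPM in null tumors and 2035 CPM in wild-type tumors, and Rpl4 averaged 1163 CPM in null tumors and 1506 CPM in wild-type tumors. Rps28, with Rps27 and Rps27l at the low end of the small subunit in CPM, averaged 238.9 CPM in null tumors and 442.1 CPM in wild-type tumors.

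Some symbols match the rule but name tissue-restricted copies. Rpl3l, a heart and muscle copy of Rpl3, was listed with 0 to 3 reads in null tumors and 0 to 3 reads in wild-type tumors. Rpl10l, a testis copy of Rpl10, had 0 to 1 reads in null tumors and 0 to 4 in wild-type tumors, and Rpl39l had 0 to 1 reads in both groups. These are near the 3 reads that a count of 0 allows, so no fold is given. Rpl26, which is not such a copy, was also not tested with all 16 tumors, with 3 to 12 reads in null tumors and 6 to 21 in wild-type tumors. It was tested once wild-type tumors 2, 4 and 7 were left out, and not called (-0.65 ± 0.38, adjusted p = 0.367). Rpl30 and Rpl34, tested members, were also listed at only 4.72 and 4.87 CPM on average in null tumors, against 6.59 and 7.81 CPM in wild-type tumors. Multiply aligned reads were not counted, so the low levels of Rpl26, Rpl30 and Rpl34 are uncertain.

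The widely expressed partners of such copies were counted in every tumor. Rpl3 had 724.1, 963 and 1303.1 CPM as lowest, median and highest value in null tumors, against 763.2, 1028.6 and 3967.8 CPM in wild-type tumors. Rpl10 had 784.6, 903.9 and 1153.2 CPM in null tumors, against 730.3, 816.4 and 3430.9 CPM in wild-type tumors. In both genes wild-type tumor 7 was highest, tumor 4 was next among wild-type tumors, and the groups overlapped. Rpl39 had 216.1, 288.5 and 371.1 CPM in null tumors, against 193.3, 276.9 and 1229.2 CPM in wild-type tumors. The X-linked Rps4x had 761.8, 943.8 and 1252.6 CPM in null tumors, against 640.5, 867.1 and 3805.6 CPM in wild-type tumors. The log2 differences of these 4 genes lay between -0.66 (Rpl39) and -0.38 (Rpl10), none was called (adjusted p from 0.184 to 0.388), and without the 3 wild-type tumors they lay between 0.25 (Rpl3 and Rpl39) and 0.38 (Rps4x).

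Ribosomal protein messages are short, with a median spliced length of 751 bases, and length moved with the comparison among other genes too. The median difference of members was -0.89 up to 500 bases, -0.93 from 500 to 750 bases and -0.65 from 750 to 1000 bases. In the same 3 ranges the medians of non-members were -0.77, -0.63 and -0.51, and above 5000 bases the median of non-members was 0.29. Without wild-type tumors 2, 4 and 7 the non-member medians in the same 3 ranges were -0.15, -0.12 and -0.13. In wild-type tumor 7 the median member stood 2.38, 2.57 and 2.26 log2 units above its null median in these ranges, and the median non-member 1.64, 1.43 and 1.23 units. From 1000 to 1500 bases the median difference with all tumors was -0.73 for 12 members and -0.34 for non-members. From 1500 to 2000 bases it was -0.63 for 4 members and -0.18 for non-members. In wild-type tumor 7 the median member of these longer ranges stood 2.34 and 2.23 units above its null median, and the median non-member 0.82 and 0.42 units. With an offset for length fitted in each tumor, 3 members were called lower, where 6.38% of all genes were called lower and 5.32% higher, and the median of the members was -0.17. The part of length in the difference was not tested further.

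**Figure D5:**
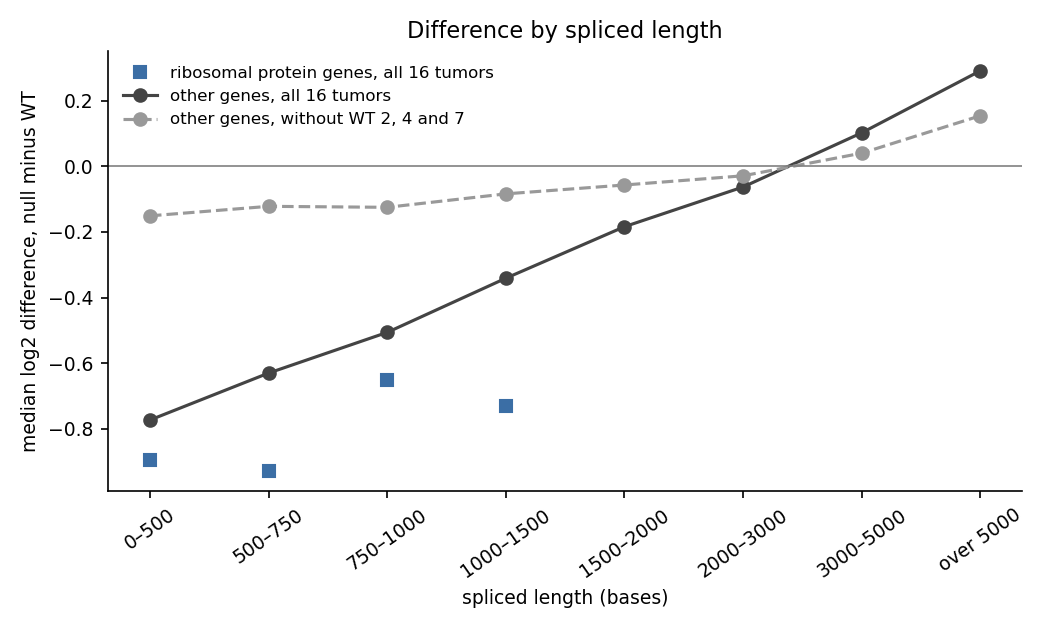
Median log2 difference, null minus wild-type (y axis), by spliced length (x axis), of ribosomal protein genes in ranges with at least 10 of them (squares) and of other genes with all 16 tumors (solid line) and without wild-type tumors 2, 4 and 7 (dashed line). Short other genes lie below 0 with all tumors and closer to 0 without the 3 wild-type tumors.

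Other genes of the ribosome were read from the same fit. Of 6 ribosomal protein genes and close copies that the symbols leave out (among them Fau, Gnb2l1, Rpl22l1 and Rpl36al), 0 were called by edgeR, 6 lay below 0 and 4 were lower at an unadjusted p under 0.05, as were 17.9% of all genes. Fau, a fusion of a ubiquitin-like protein with a small-subunit protein, had a difference of -0.98 ± 0.40 (adjusted p = 0.0986). Without wild-type tumors 2, 4 and 7 the median of the 6 was 0.089, with 4 above 0 and 2 below it. Of the 6, 0 then had an unadjusted p under 0.05, and Fau stood at 0.085 ± 0.20 (edgeR adjusted p = 0.855). Among 20 other genes whose messages carry a terminal oligopyrimidine tract, 2 were called lower, 0 higher, and the median was -0.24. Of all genes, 8.64% were called lower and 7.40% higher. The 2 called were Btf3 (-0.97 ± 0.24, adjusted p = 0.0163) and Naca (-0.94 ± 0.26, adjusted p = 0.0243), which form the complex that meets new chains at the ribosome. Neither was called without the 3 wild-type tumors (adjusted p = 0.133 and 0.186), where the median of the 20 genes was 0.07.

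The mitochondrial ribosomal protein genes, which serve a separate ribosome, held 14 called lower and 0 higher of 76 (8.64% and 7.40% of all genes), with a median of -0.48. The called genes of smallest p were Mrpl30 (-1.12 ± 0.27, adjusted p = 0.0139), Mrpl32 (-0.78 ± 0.21, adjusted p = 0.0206) and Mrpl13 (-0.92 ± 0.25, adjusted p = 0.022). Without wild-type tumors 2, 4 and 7, 0 of the 76 were called (4 at an unadjusted p under 0.05) and the median was -0.03. Of all genes, 0.871% were then called lower and 0.805% higher. Without tumor 7 alone 5 of the 76 were called lower, where 5.56% of all genes were. The ribosome assembly factors had 18 called higher and 6 lower of 91, where 7.40% of all genes were called higher and 8.64% lower, with a median of 0.06. Mdn1, which remodels the maturing large subunit, rose by 1.82 ± 0.28 on the log2 scale (162.6 ± 38.2 CPM in null tumors and 46.0 ± 22.6 CPM in wild-type tumors; adjusted p = 0.00213). Tsr1, which acts on the maturing small subunit, rose by 1.02 ± 0.16 (adjusted p = 0.00215), a value that is uncertain because 34.2% of its exon bases lie across from Srr. Of the exon bases of Mrpl13, 27% lie across from Mtbp, so its value is uncertain too. Taf1d, a subunit of the RNA polymerase I selectivity factor, was lower by a log2 difference of -1.42 ± 0.20 (adjusted p = 0.0016). Unlike the ribosomal protein genes, these 3 were also called without the 3 wild-type tumors (adjusted p = 0.0161, 0.0393 and 0.0218), where 6 assembly factors were higher and 1 was lower, against 0.805% and 0.871% of all genes. Against 7.40% of all genes called higher and 8.64% lower, 3 of 17 chaperones, importers and other partners of ribosomal proteins were higher and 2 lower. The 2 lower were Btf3 and Naca, already given above. The 3 higher included Heatr3, which imports RPL5 (0.77 ± 0.19, adjusted p = 0.0151), and Tnpo1, an import receptor (1.02 ± 0.26, adjusted p = 0.0165). Neither Heatr3 nor Tnpo1 was called without the 3 wild-type tumors (adjusted p = 0.138 and 0.166). There 1 of the 17 was called, Grwd1, which was higher by 0.76 ± 0.16 (adjusted p = 0.0364), against 0.49 ± 0.18 with all tumors (adjusted p = 0.0609). Grwd1 is also among the 6 assembly factors called higher there.

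Markers of other cell types were read beside the sums. Of 11 macrophage markers 4 were called lower in null tumors and 0 higher, where 8.64% of all genes were called lower and 7.40% higher. Without wild-type tumors 2, 4 and 7, 0 of the 11 were called, against 0.871% of all genes called lower and 0.805% called higher. At an unadjusted edgeR p under 0.05 there were 5, all lower, where 10.1% of all genes were lower and 9.49% higher. The median of the 11 was -0.73 with all tumors and -0.76 without the 3, where 6 lay below 0 and 5 above it. Without tumor 7 alone 2 of the 11 were called lower, where 5.56% of all genes were. The summed level of the macrophage markers was 378.2 to 1065 CPM in null tumors and 419.4 to 1060 CPM in wild-type tumors. Of 9 alveolar type 2 markers 1 (Abca3) was higher, with sums of 914.4 to 3842 CPM in null tumors and 299.1 to 2644 CPM in wild-type tumors. Among 13 tested neuroendocrine markers, 8 T and B cell, 9 endothelial, 9 fibroblast and 6 airway markers, and 1 red blood cell marker, 0 were called. At an unadjusted p under 0.05 there were 4, 3, 2, 2, 1 and 0 in the same order. In wild-type tumor 7 the macrophage sum was 844.6 CPM and the neuroendocrine sum 15144 CPM, both inside the range of the other wild-type tumors. Their part in the ribosomal protein result was not tested.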

How the data were processed

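RNA from 16 mouse lung tumors was sequenced. The authors deposited 1 table of raw counts per tumor, whole numbers of reads per gene symbol; per the submitters' processing notes bcl2fastq 1.8.4, TopHat2 2.0.12, TopHat, HTSeq 0.6.1 and build mm9 were used, with no role or order. The annotation and strand setting were not found in these sources. The closing totals of each table (no gene, several genes, several places), 29.2% to 45.7% of reads, stayed out of library sizes and tests. The main test was edgeR 4.0.16 (R 4.3.3) quasi-likelihood on all genes, with TMM factors, filterByExpr (14825 genes kept) and Benjamini-Hochberg adjustment over them, and was tested on simulated data. The members and gene lists were chosen with earlier results of these data known. The rule for genes named with values took the 8 called members of smallest p, tissue-restricted copies with their partners, members of extreme level or difference and a few of known function. Other names were chosen after their values were seen. Neighbours, spliced lengths and exon overlaps come from GENCODE (GRCm38), which was not used for counting, and promoters from RefSeq. A few genes are not reported here. Alternatives were DESeq2 1.42.0, limma-voom (limma 3.58.1), other scalings and filters, a tumor-number block, covariates, and leaving out tumors.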

Additional observations from a re-analysis of the deposited data

Results flagged for a closer look

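Dixon's test compares the gap from a group's extreme value to the next with the range of the group. Among null tumors it marked tumor 3 for Rpl10a (626.5 CPM, against 447.4 CPM in the next) and for Rpl31 (626.7 CPM, against 489.4 CPM), and tumor 5 for Rpl11 (1800 CPM, against 896.1 CPM). Wild-type tumor 7 stood apart from the other 6 wild-type tumors by the same test. Its summed CPM of ribosomal protein genes was 219034, against 81351 in the next tumor. It also stood apart for 21 of 27 genes examined, which were Rpl24 (3375.5 CPM), Rps25 (2510 CPM), Rpl27 (1869 CPM), Rpl32 (2912 CPM), Rps26 (2230 CPM), Rpl41 (4508 CPM), Rpl10a (2471 CPM), Rpl36 (1401 CPM), Rpl37 (1898 CPM), Rpl17 (3454 CPM), Rpl31 (2995 CPM), Rplp2 (644.2 CPM), Rps9 (1888 CPM), Rpl5 (3163 CPM), Rpl11 (6060 CPM), Rps19 (1656 CPM), Rpsa (6536 CPM), Rplp0 (6189 CPM), Rpl3 (3968 CPM), Rpl10 (3431 CPM) and Rps4x (3806 CPM). In all 58 groups of values were examined and 25 were marked. Chance marks about 1 in 20 groups, and since the members move together these are not independent.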

How the results depend on the processing

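Of the members, 77 were tested in most settings, 75 with a stricter filter, 78 without wild-type tumors 2, 4 and 7 and 81 with no filter. The count of 15 called lower was 15 with DESeq2-style size factors, 21 with upper-quartile factors and 17 with a stricter filter. Of all genes, 8.57%, 10.2% and 8.73% were called lower in the same order. It was 9 with library totals alone or no filter, 32 with DESeq2, 3 with limma-voom, 3 with the length offset, and 0 without wild-type tumors 2, 4 and 7 or with the multiply aligned share entered as covariate. Of all genes, 5.74%, 5.10%, 12.1%, 7.73%, 6.38%, 0.871% and 0.0135% were called lower in the same order. Leaving out 1 tumor gave 3 (without wild-type tumor 7) to 27 (without wild-type tumor 3) called, where 5.56% and 10.3% of all genes were called lower. The median difference of -0.83 was 0.051 without the 3 wild-type tumors, 0.59 with the covariate and -0.17 with the length offset, and -0.95 to -0.23 with 1 tumor left out. It was -0.24 with limma-voom and -0.44 with the replicate block, and for the other settings it lay between -0.86 and -0.61. These moved by less than 1 SD of the spread within groups, which is 0.641. That spread is between single tumors and includes wild-type tumor 7, so a smaller move does not show a stable median. The log2 ratio of summed CPM of -0.80 was 0.045 without the 3 wild-type tumors. Over all genes, 2378 were called, against 256 without the 3 wild-type tumors, 10 with the covariate and 1471 (without wild-type tumor 4) to 3033 with 1 tumor left out. The large to small subunit ratio and the 0 called relative to the members' sum (8 at an unadjusted p under 0.05) moved by less than the spread within groups, or stayed at 0, in all settings run for them. Tumor numbers did not pair the tumors: the correlation of deviations between equal numbers ran from -0.17 to 0.24. With the replicate block on tumors 1 to 7 of each group 0 members and 278 genes were called; without the block, added after seeing the data, the same tumors gave 5 members and 1450 genes.

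Fitted log2 differences of named genes changed sign as follows, and the cause was not tested. The fit with the covariate cannot separate genotype from the multiply aligned share, in which the groups do not overlap. With the covariate, above 0 were Rps27l (0.085), Rpl24 (0.30), Rps25 (0.17), Rps24 (0.24), Rpl27 (0.36), Rpl32 (0.41), Rps26 (0.34), Rpl41 (0.36), Rpl10a (0.41), Rpl36 (0.48), Rpl37 (0.46), Rpl17 (0.40), Rpl31 (0.48), Rplp2 (0.96), Rps9 (0.98), Rpl5 (0.66), Rpl11 (0.063), Rpl22 (0.42), Rps19 (0.69), Rpsa (0.43), Rplp0 (0.64), Rpl3 (0.71), Rpl10 (0.78), Rpl39 (0.84) and Rps4x (0.92). Without the 3 wild-type tumors they were Rplp2 (0.47), Rps9 (0.48), Rpl5 (0.26), Rps19 (0.053), Rplp0 (0.041), Rpl3 (0.25), Rpl10 (0.32), Rpl39 (0.25) and Rps4x (0.38). With the length offset they were Rplp2 (0.62), Rps9 (0.46), Rpl10 (0.22), Rpl39 (0.093) and Rps4x (0.090). With limma-voom they were Rplp2 (0.27), Rps9 (0.27), Rpl5 (0.007) and Rps4x (0.024). With library totals alone they were Rplp2 (0.060) and Rps9 (0.020), and with the replicate block Rplp2 (0.14) and Rps9 (0.12). With 1 tumor left out the lowest and highest values of the genes that changed sign, each highest without wild-type tumor 7, were -0.25 and 0.28 for Rplp2, -0.27 and 0.30 for Rps9, -0.49 and 0.023 for Rpl5, -0.55 and 0.079 for Rpl3, -0.47 and 0.10 for Rpl10 and -0.58 and 0.074 for Rps4x. Of the 15 genes called, 9 were called with library totals alone, 3 with limma-voom and 0 with the replicate block. Genes listed at a few CPM are limited by counting error.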

Other observations

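The genes beside Rps6 and Rpl11, 2 members on chromosome 4 that stood above the module in wild-type tumor 1, were examined after their values had been seen. For each, the 6 nearest genes per side in the GRCm38 annotation with at least 10 CPM on average were taken. Rpl11 itself had 1800 CPM in null tumor 5 and 2740 CPM in wild-type tumor 1. In null tumor 5, 10 of 12 neighbours of Rpl11 had their highest value of the 9 null tumors, where 22.7% of all genes did. In wild-type tumor 1, 9 of 12 neighbours of Rpl11 had their highest value of all 16 tumors, where 9.34% of all genes did. Among them E2f2, a cell cycle transcription factor, had 771.1 CPM in null tumor 5 and 965.1 CPM in wild-type tumor 1, which were 5.04 and 6.3 times the median of the tumors other than the one named. Luzp1 had 176.9 CPM in null tumor 5 and 222.4 CPM in wild-type tumor 1, and Hnrnpr, an RNA-binding protein gene, had 387.1 CPM in null tumor 5 and 750.5 CPM in wild-type tumor 1.

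Rps6 had 3341 CPM in wild-type tumor 1 and a median of 900.7 CPM over the other tumors. Of its 12 neighbours, 5 had their highest value of all 16 tumors in wild-type tumor 1, and all 5 (Cntln, Sh3gl2, Rraga, Haus6 and Dennd4c) lay on the same side of Rps6. Haus6, a subunit of the augmin complex of the spindle, had 192 CPM there against a median of 29.9 CPM in the other tumors. Rraga, a GTPase that signals amino acids to mTORC1, had 327.7 CPM against 108.1 CPM. Without wild-type tumor 1 the log2 difference of Rps6, null minus wild-type, was -0.93 (edgeR adjusted p = 0.0443). It was -0.82 without wild-type tumor 7 (adjusted p = 0.0619) and -0.87 without wild-type tumors 2, 4 and 7 (adjusted p = 0.145), and was not called in either. That of Rpl11 missed the threshold with all tumors and passed it without null tumor 5 (-1.44, adjusted p = 0.036) or without wild-type tumor 3 (-1.35, adjusted p = 0.0457). It was -1.06 without wild-type tumor 1 (adjusted p = 0.121), -0.51 without wild-type tumor 7 (adjusted p = 0.352) and -0.53 without the 3 wild-type tumors (adjusted p = 0.526). Genes that neighbour each other share their chromosome and are not independent.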
